A study of Homo sapiens with 8 samples.

Results

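The untreated state of MDA-MB-231 was described from 3 control arrays, the only arrays of the 8 in the series that were titled as controls. MDA-MB-231 is an established human breast cancer line grown from a pleural effusion, and it is known as triple-negative, that is, without oestrogen receptor, progesterone receptor or amplified ERBB2. Per the labels, the control flasks received no treatment and were harvested at 24 h with the treated ones. All flasks were grown in high-glucose medium (4500 mg/L) with 7% serum. No vehicle is named for the controls, and the labels do not say that the 3 samples came from separate cultures, so the spread between them may be partly technical. The arrays, of the Human Gene 2.1 ST design, carry probes along whole transcripts. Of 53617 rows in the table, 23558 named exactly 1 gene. Where a symbol recurred, its brightest row, by the average of all 8 arrays, stood for the gene. This gave 22109 genes, and treated arrays were used for nothing else.

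Breast epithelium has an inner luminal layer, marked by simple keratins and hormone receptors, and an outer basal layer, marked by KRT5 and KRT14. Carcinoma cells can lose epithelial junctions and take up mesenchymal features, a shift driven by the ZEB, SNAI and TWIST repressors of E-cadherin and opposed by the microRNAs of the miR-200 family. MDA-MB-231 is widely used as a model of the mesenchymal, invasive end of that range, and sublines of it were used to find genes of lung and bone metastasis.

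The table gives no background, so the olfactory receptor genes, a family with little expression outside the nose, were used as a reference. Their 354 measured members had a median log2 level of 1.23, 1.20 and 1.33 on controls 1, 2 and 3, and their 95th percentile was 2.34, 2.34 and 2.49. A gene is called above the reference when it exceeded that percentile on each of the 3 arrays. A gene that missed it on at least 1 array is called within the reference, and a dim gene cannot be told from an absent one. The call held for 11435 genes, or 51.7% of all genes. At the 99th percentile of the olfactory receptors it held for 8834 genes, or 40.0%. Of 16954 protein-coding genes 10179 were above the reference (60.0%). The lists below hold mostly protein-coding genes. The call turns on hundredths of a log2 unit at its edge: KCTD17, at 3.17, 2.79 and 2.49, lay just outside, and HS6ST1, at 2.65, 2.37 and 2.49, just inside. Percentiles given below are those of a gene's mean log2 level among the 22109 genes. They order the brightness of probe sets, which depends on the probes as well as on the number of transcripts. GAPDH and ACTB, a glycolytic enzyme and an actin that most cells make in great amount, stood at percentiles of 85.7 and 77.5, so percentiles are not copy numbers.

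**Figure D1:**
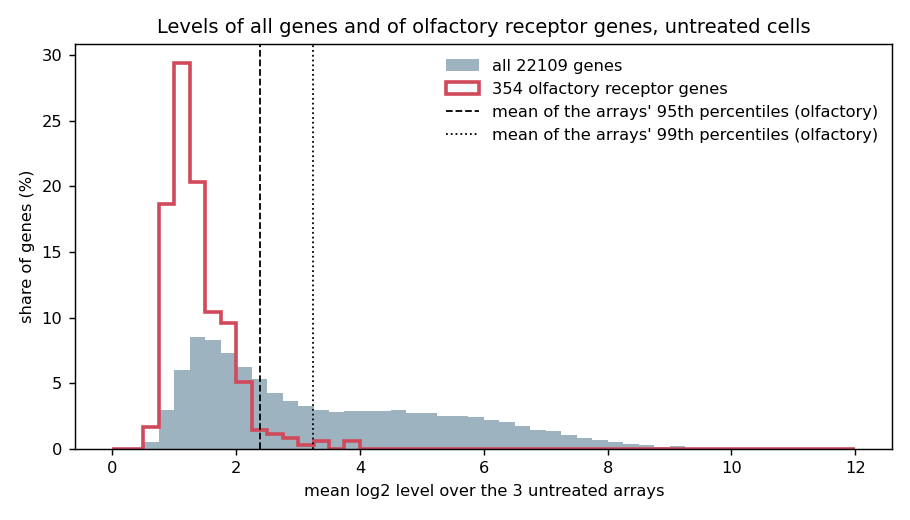
Share of genes (vertical axis, %) by mean log2 level over the 3 untreated arrays (horizontal axis) for all 22109 genes (filled) and the 354 olfactory receptor genes (outline). The vertical lines mark the means of the arrays' 95th and 99th percentiles of the olfactory receptors, and the filled distribution has a long tail to the right of both lines that the outline lacks.

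Control 3 stood apart from controls 1 and 2. Across genes, which are not independent replicates, controls 1 and 2 correlated at 0.992, and control 3 correlated with them at 0.973 and 0.972. The median of the log2 level over genes was 2.83, 2.83 and 2.72. The median SD over the 3 arrays was 0.21 among genes above the reference. For this reason the value on each array is given for the genes that matter, in the order control 1, 2 and 3.

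Among rows naming a single gene, the brightest were those of the mitochondrial genome. The 6 highest ranks of all 22109 genes were held by ND2, CYTB, COX1, ND5, ND1 and COX2, which encode subunits of respiratory complexes I, III and IV. ND2 read 11.66, 11.63 and 11.52, a mean of 11.61 ± 0.07 (SD, n = 3). COX2, the mitochondrial cytochrome oxidase subunit and not the cyclooxygenase, read 11.15, 11.17 and 11.08. ND3 followed at 9.81 ± 0.09. The first 6 genes differed little between the arrays, with SDs of 0.03 to 0.15. All 8 mitochondrial genes with a row of their own were above the reference, and 7 of them were among the 100 brightest. ND6, which lies on the other strand, had rank 175 at a mean of 8.61 ± 0.08.

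Of the protein-coding genes that followed, TUBB, a beta-tubulin, read 11.01, 11.05 and 10.77, and its 7 rows lay within 0.09 of each other. TMSB10, which holds actin monomers, read 10.76, 10.84 and 10.86. The actin gene ACTG1 had a mean of 10.08 ± 0.19, the actin crosslinker ACTN4 9.98 ± 0.40, and moesin (MSN), which ties actin to the membrane, 10.07 ± 0.21. CALR, a calcium-binding chaperone of the endoplasmic reticulum, had a mean of 10.09 ± 0.14, and FTL, the ferritin light chain, 10.01 ± 0.43. Several other genes chosen as brightness controls were bright too: the glycolytic enzymes PKM (9.55 ± 0.25) and ENO1 (7.93 ± 0.12) and the transferrin receptor TFRC (7.81 ± 0.11). All 16 measured members of that list were above the reference, against 60.0% of protein-coding genes. Not all were bright: the lowest mean was 2.90, and 14 of the 16 passed at the 99th percentile of the olfactory receptors.

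Among the 25 brightest were also genes of signalling, transport and secretion. ERRFI1, an inhibitor of the EGF receptor, had a mean of 10.14 ± 0.12. SLC38A2, an amino acid transporter, read 10.05, 10.02 and 9.93. The lysosomal protease CTSD read 10.05, 10.16 and 9.35, lower on control 3 by 0.75 than the mean of the others. CST4, a secreted cysteine protease inhibitor, read 10.56, 10.71 and 10.12. Its close relatives in the cystatin cluster may share its probes, so that its level is uncertain. ATP5F1B (9.98 ± 0.15) of the mitochondrial ATP synthase, ATP6V0E1 (9.94 ± 0.13) of the vacuolar proton pump, the histone gene H2AC20 (9.96 ± 0.03) and the ribosomal protein gene RPS28 (9.86 ± 0.67) completed the protein-coding rows. The dimmest row of RPS28 had a mean of 3.56. The long non-coding RNA MALAT1, which stays in the nucleus, had a mean of 9.97 ± 0.21. The pseudogenes HNRNPA1P10 (10.47 ± 0.10) and ANXA2P2 (9.97 ± 0.16) are near copies of expressed genes and cannot be told from them here.

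Of the 100 brightest genes 85 were protein-coding, 9 were small RNAs and 4 were long non-coding RNAs. The brightest small RNA was SNORD13, which guides ribosomal RNA modification, at 10.63, 10.61 and 11.07. It was followed by SNORD46 (10.06, 10.17 and 10.95), RNU5A-8P (9.51, 9.59 and 10.84), the RNA of RNase MRP, RMRP (9.60, 9.74 and 10.09), and SNORA23 (9.09, 9.29 and 10.98). All 5 were highest on control 3. RNU5A-8P counts as a pseudogene by its symbol, and how far its value comes from related genes was not tested. Of 55 cytosolic ribosomal protein genes with a row of their own 50 were above the reference (90.9%, against 60.0% of protein-coding genes). Their median percentile was 82.2, and 3 were among the 100 brightest.

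The mesenchymal genes were bright as a list, with 23 of 32 above the reference (71.9%, against 51.7% of all and 60.0% of protein-coding genes). Their median percentile was 76.7, where that of protein-coding genes was 58.2. The median of all genes is at the middle of the scale by construction. At the 99th percentile of the olfactory receptors 20 of the 32 mesenchymal genes were above (40.0% of all genes). The list was chosen with earlier results of these data known. VIM, the intermediate filament protein vimentin, read 8.99, 9.10 and 8.68 (8.92 ± 0.22; percentile 99.5). FN1, the matrix protein fibronectin, read 10.08, 10.05 and 8.46. It was lower on control 3 by 1.60 than the mean of the others, and its mean was 9.53 with that array and 10.07 without it. NT5E (CD73), which makes extracellular adenosine, had a mean of 9.04 ± 0.08, and the receptor kinase AXL 9.43 ± 0.34. Among the transcription factors of the mesenchymal shift, SNAI2 read 8.20, 8.43 and 7.11 and ZEB1 6.07, 6.05 and 5.93, both above the reference at its 95th and 99th percentile.

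Other textbook mesenchymal genes lay within the reference. TWIST1 read 1.11, 1.23 and 1.17, a percentile of 7.38. CDH2, which encodes N-cadherin, read 1.98, 1.87 and 1.68, while CDH11, the cadherin of mesenchymal cells, had a mean of 8.22 ± 0.25. SPARC, a matrix glycoprotein, read 2.30, 2.30 and 2.06. None of these 3 genes exceeded the reference on any array. The list was therefore mixed, with the repressors SNAI2 and ZEB1 above the reference and TWIST1 within it, and with CDH11 above it and CDH2 within it.

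The microRNA genes of the miR-200 family, which target ZEB1 and ZEB2, were all within the reference. Their mature strands are shown because the family is defined by its seed, bases 2 to 8 in capitals (RNA from RefSeq, GRCh38.p14; the genes lie in a cluster on chromosome 1 and a pair on chromosome 12, all on the plus strand).
hsa-miR-200b-3p (chr1:1167160-1167181): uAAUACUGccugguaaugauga
hsa-miR-200c-3p (chr12:6963742-6963764): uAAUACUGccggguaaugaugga
hsa-miR-429 (chr1:1169055-1169076): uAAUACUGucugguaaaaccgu
hsa-miR-200a-3p (chr1:1167916-1167937): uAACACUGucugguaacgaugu
hsa-miR-141-3p (chr12:6964155-6964176): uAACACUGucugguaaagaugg
The first 3 share the seed AAUACUG and the other 2 the seed AACACUG, which differ by 1 base. The array reads the gene or its longer transcript and not the mature strand, so what follows is about the precursors. MIR200C read 1.13, 0.93 and 1.36, and MIR200B 1.50, 1.24 and 1.37. MIR200A read 1.36, 1.32 and 1.40, MIR429 1.14, 1.05 and 1.60, and MIR141 1.69, 2.00 and 1.87. All 5 were below the reference on all 3 arrays, at percentiles of 6.63 to 29.2. Of the 1018 microRNA genes with a row of their own 229 were above the reference (22.5%), so that a dim row is common in this class.

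The microRNA genes MIR21, MIR221 and MIR222 were bright on the same arrays. MIR21 and the MIR221 and MIR222 pair are known for raised levels in many carcinomas. Their mature strands, again with the seed in capitals, show that miR-221 and miR-222 share the seed GCUACAU.
hsa-miR-21-5p (chr17:59841273-59841294, plus strand): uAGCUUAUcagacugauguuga
hsa-miR-221-3p (chrX:45746180-45746202, minus strand): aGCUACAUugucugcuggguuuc
hsa-miR-222-3p (chrX:45747036-45747056, minus strand): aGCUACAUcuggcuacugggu
MIR21 read 7.31, 7.34 and 7.33, a percentile of 96.0, and was the second brightest microRNA gene. MIR221 read 7.24, 6.62 and 6.87 and MIR222 6.52, 6.14 and 5.47. MIR21 overlaps the end of a protein-coding gene, VMP1, on the same strand, and the part of that transcript in its value was not tested.

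Of the epithelial junction and identity genes 21 of 31 were above the reference (67.7%, against 51.7% of all and 60.0% of protein-coding genes). Their median percentile was 55.6, below the 58.2 of protein-coding genes. At the 99th percentile of the olfactory receptors 13 of 31 were above (40.0% of all genes). The share of protein-coding genes at that percentile was not counted. CDH1, the E-cadherin of epithelial contacts, read 2.89, 3.26 and 2.89. This is above the reference at its 95th percentile and not at its 99th, a level that some olfactory receptor genes also reached. CLDN4 was in the same position at 3.02, 2.89 and 2.97. ESRP1, which splices transcripts in the epithelial manner, read 1.35, 1.05 and 1.00, and GRHL2, an activator of CDH1, read 1.93, 1.87 and 1.86. Both were below the reference on all arrays.

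Several epithelial genes were nonetheless bright. The desmosome protein DSP read 8.18, 8.08 and 7.22, and the protease inhibitor SPINT2 had a mean of 7.56 ± 0.13. The tight junction scaffold TJP1 (7.05 ± 0.41), the mucin MUC1 (6.95 ± 0.29) and the desmosomal plaque protein PKP2 (6.76 ± 0.10) followed. EPCAM, an adhesion molecule of epithelia, read 4.91, 4.97 and 5.58. CD24, a surface sialoglycoprotein, had a mean of 4.19 ± 0.63, with 3.69 on control 1 and 4.89 on control 3. EPCAM and CD24 were highest on control 3, whereas CLDN7 (5.41, 5.40 and 4.79) and DSP were lowest there.

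Claudins form the strands of tight junctions. The claudin-low class of breast cancers, in which this line is usually placed, is named for low levels of certain claudins. A count over the whole family does not decide that class, and CLDN7 was the brightest member here. Of 22 claudin genes 10 were above the reference (45.5%, against 51.7% of all and 60.0% of protein-coding genes). At the 99th percentile, which 40.0% of all genes passed, 3 were above it: CLDN7 (5.20 ± 0.35), CLDN3 (4.09, 4.33 and 4.75) and CLDN23 (3.84 ± 0.19). CLDN1 (3.17 ± 0.05) and CLDN2 (3.09 ± 0.13) passed at the 95th percentile. The dimmest claudin rows were CLDN8, at a mean of 1.20, and CLDN17, at 1.24.

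**Figure D2:**
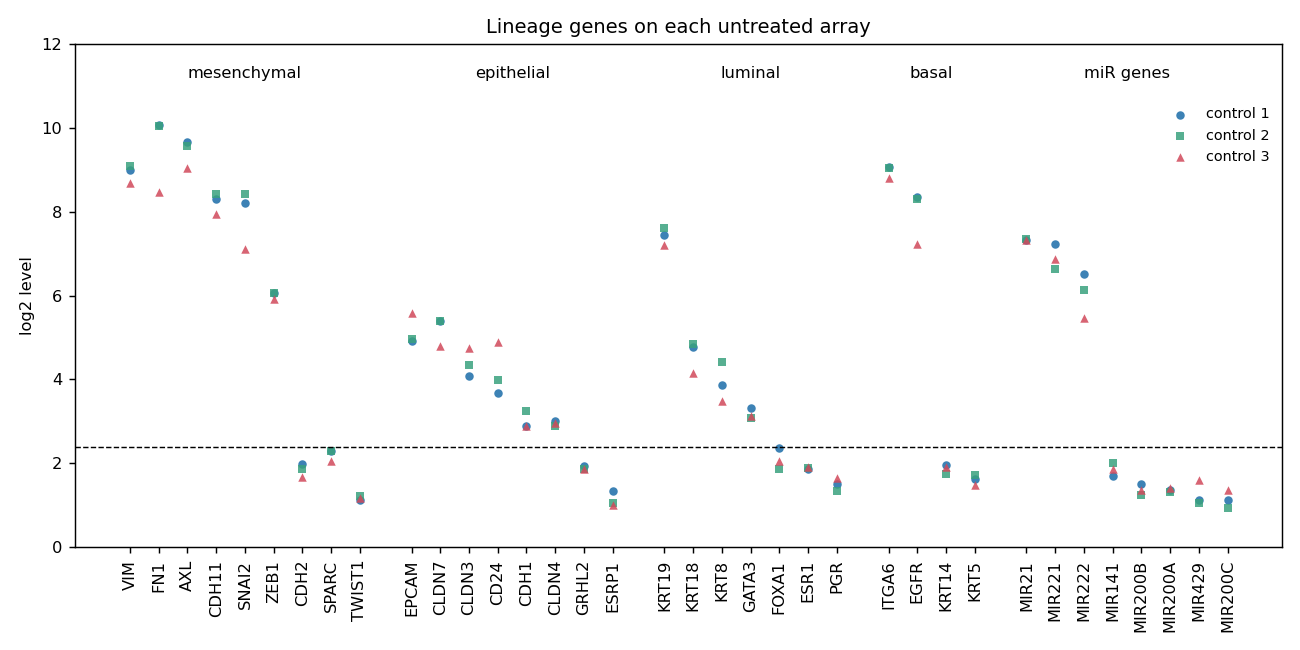
Log2 level (vertical axis) of lineage genes on control 1 (circle), control 2 (square) and control 3 (triangle), grouped by list, with the mean 95th percentile of the olfactory receptors as a dashed line. VIM, FN1, AXL, KRT19, ITGA6, EGFR and MIR21 lie far above the line, and TWIST1, CDH2, ESRP1, ESR1, PGR, KRT5, KRT14 and the miR-200 genes below it.

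The hormone receptors and their partners were dim. ESR1, the oestrogen receptor, read 1.85, 1.90 and 1.92, and PGR, the progesterone receptor, 1.50, 1.34 and 1.65. Both were below the reference on all arrays, at percentiles of 30.4 and 17.8. FOXA1, the pioneer factor that opens oestrogen receptor sites, read 2.37, 1.87 and 2.05 and was above the reference on control 1 only. GATA3, the luminal master regulator, read 3.31, 3.08 and 3.13, above the reference at its 95th and not at its 99th percentile. ERBB2 was not analysed here. ERBB3, the partner of ERBB2, read 2.61, 2.73 and 1.98.

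Of the luminal list 14 of 28 were above the reference (50.0%), near the 51.7% of all genes and below the 60.0% of protein-coding genes. KRT19, a simple keratin, read 7.46, 7.60 and 7.20, and KRT7 6.24, 6.17 and 5.47, with the other row of KRT7 at a mean of 3.59. KRT18 had a mean of 4.60 ± 0.38 and its partner KRT8 3.92 ± 0.47. The zinc transporter SLC39A6 read 7.99, 7.90 and 7.95. SPDEF, an ETS factor of secretory epithelium, had a mean of 6.14 ± 0.29, and XBP1, a factor of secretory cells, 5.68 ± 0.07.

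Of the basal and myoepithelial list 9 of 20 were above the reference (45.0%, against 51.7% of all and 60.0% of protein-coding genes). At the 99th percentile, which 40.0% of all genes passed, 4 were above. OXTR, the oxytocin receptor, passed at the 95th percentile (3.69 ± 0.79). The 4 were surface and basement membrane genes: ITGA6 (9.07, 9.03 and 8.80) and ITGB4 (7.28, 7.45 and 6.06), the chains of the hemidesmosome integrin, the laminin chain LAMB3 (8.10, 8.09 and 7.10) and EGFR (8.36, 8.30 and 7.22). The keratins of the layer were dim, KRT5 at 1.63, 1.73 and 1.49 and KRT14 at 1.97, 1.75 and 1.91. TP63, KRT17 and FOXC1 were not analysed here.

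**Figure D3:**
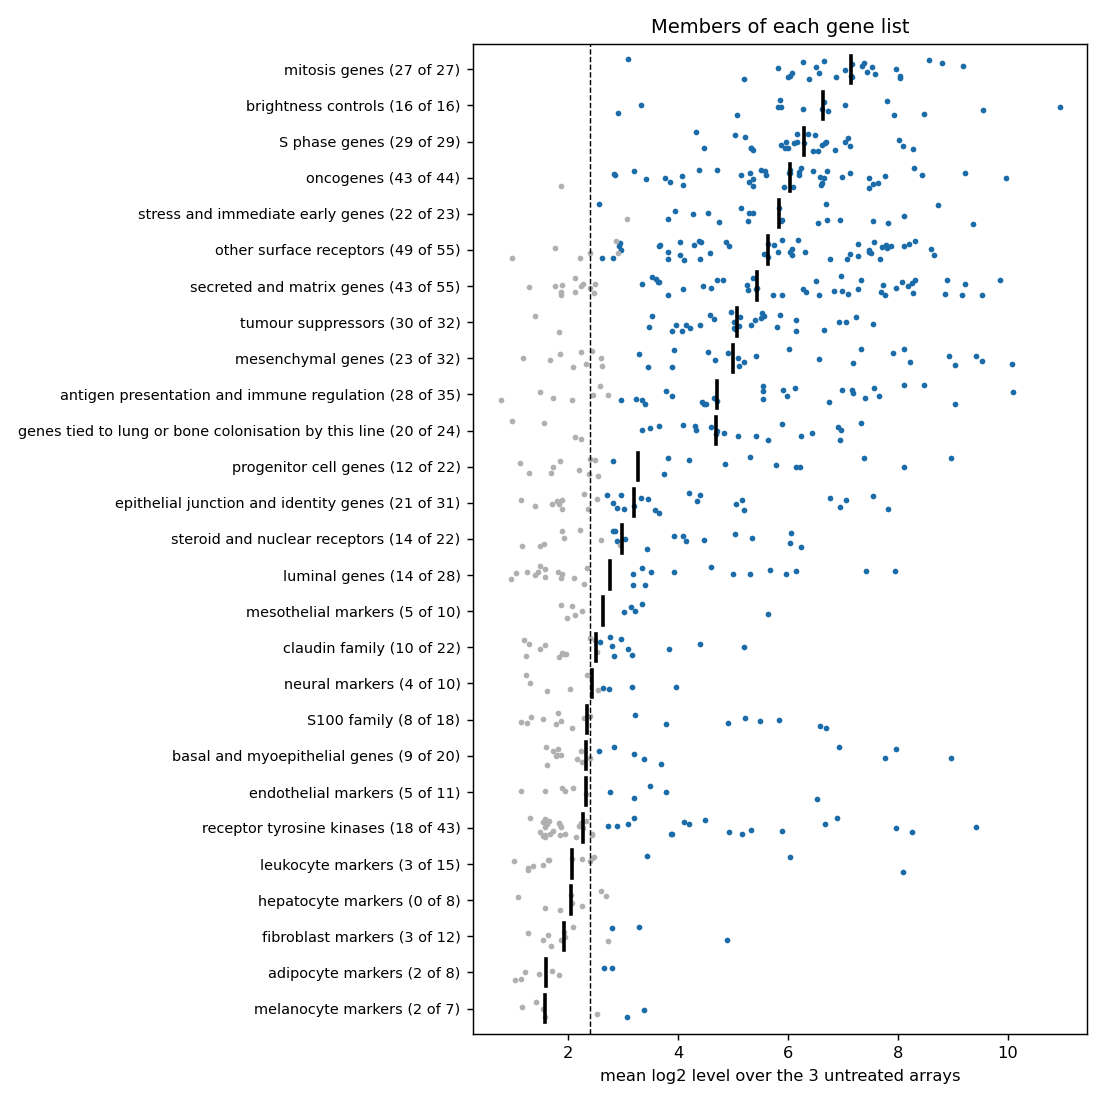
Mean log2 level over the 3 untreated arrays (horizontal axis) of every measured member of each gene list, in blue where the gene was above the reference on all arrays and grey where it was not, with the list median as a black bar and the mean 95th percentile of the olfactory receptors as a dashed line. Counts above the reference stand beside each name, from 27 of 27 for mitosis genes to 0 of 8 for hepatocyte markers.

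Of the nuclear receptors 14 of 22 were above the reference (63.6%), near the 60.0% of protein-coding genes (51.7% of all genes). The glucocorticoid receptor NR3C1 read 6.28, 6.20 and 6.21. PPARD, a fatty acid sensor, had a mean of 6.05 ± 0.50, lowest on control 3, and the clock repressor NR1D2 6.04 ± 0.06. NR2F6 (5.34 ± 0.18) and RXRB (5.03 ± 0.27), a shared partner of many receptors, were next. The steroid receptors thus divided into NR3C1, far above the reference, and ESR1, ESR2 and PGR, not above it on every array, while the mineralocorticoid receptor NR3C2 stood above the reference at a mean of 2.82.

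Of 43 receptor tyrosine kinases 18 were above the reference (41.9%, against 51.7% of all and 60.0% of protein-coding genes). AXL read 9.67, 9.58 and 9.04 and MET, the receptor of hepatocyte growth factor, 8.34, 8.17 and 8.26. EGFR followed in mean level (7.96 ± 0.64), with EPHA2, an ephrin receptor (6.90 ± 0.26), and ROR1, a receptor of WNT5A (6.68 ± 0.49). AXL, EGFR and ROR1 were lowest on control 3, and without that array EGFR had a mean of 8.33. The kinases of other lineages, such as KIT, FLT3, ALK and NTRK3, had means of 1.29 to 1.66 and were within the reference.

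Most of the other surface receptors were above the reference, 49 of 55 (89.1%, against 51.7% of all and 60.0% of protein-coding genes). IL6ST, the signalling chain shared by interleukin 6 and its relatives, had a mean of 8.67 ± 0.08, and NRP1, a co-receptor of VEGF, 8.31 ± 0.13. TNFRSF12A, the receptor of TWEAK, read 9.07, 9.08 and 7.68. CD44, the hyaluronan receptor, read 8.36, 8.37 and 7.63 in the row kept, and its other row had a mean of 5.42. TGFBR2 had a mean of 7.88 ± 0.13, the urokinase receptor PLAUR 7.47 ± 0.46, the thrombin receptor F2R 5.75 ± 0.02 and the chemokine receptor CXCR4 5.64 ± 0.16. The complement regulator CD46 (8.21 ± 0.33) was highest on control 3.

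Among oncogenes 43 of 44 were above the reference (97.7%, against 51.7% of all and 60.0% of protein-coding genes), with a median percentile of 87.1. FOSL1, the AP-1 subunit FRA1, read 8.80, 8.62 and 7.91. RHOA, the GTPase of stress fibres, had a mean of 9.22 ± 0.05, CDC42 8.29 ± 0.14 and MCL1, a survival protein of the BCL2 family, 7.77 ± 0.42. Cyclin D1 (CCND1) read 7.60, 7.78 and 7.06. MYC read 6.27, 6.33 and 5.66, and YAP1, the Hippo effector, 6.72, 6.79 and 6.61. MYCL, at a mean of 1.87, was the one member within the reference.

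Of 32 tumour suppressors 30 were above the reference (93.8%, against 51.7% of all and 60.0% of protein-coding genes), with a median percentile of 77.4. RB1, the brake on E2F factors, read 6.70, 6.49 and 6.76, and NF1, a brake on RAS, 5.71, 5.49 and 5.47. The chromatin genes PBRM1 (7.54 ± 0.02) and KMT2C (7.23 ± 0.17) and the TGF-beta mediators SMAD4 (7.06 ± 0.13) and SMAD2 (6.94 ± 0.15) were the brightest. SMAD4 has 3 rows, of which the dimmest had a mean of 1.99. The 2 suppressors within the reference were CDKN2A, which encodes inhibitors of CDK4 and of MDM2, at 1.55, 1.24 and 1.42, and its neighbour CDKN2B, at 1.84, 2.05 and 1.63.

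The 2 neighbours CDKN2A and CDKN2B lie in a stretch of chromosome 9 whose other genes were mostly dim too. This stretch was looked at after the values of CDKN2A and CDKN2B had been seen, and is a description. In gene order, 28 measured genes lie between FOCAD and TUSC1, and 1 of them, IFNA14 (4.94, 4.59 and 4.59), was above the reference. CDKN2A and CDKN2B are counted among the 28. IFNA14 aside, FOCAD and TUSC1 are the nearest genes above the reference on either side of them. The low count thus follows from where the ends of the stretch were put. Over the whole of chromosome 9 the share was 503 of 866 measured genes (58.1%), which is given for scale only. IFNA14 has near-identical relatives, so its level is uncertain. The stretch holds 16 interferon genes, which are silent in most resting cells. The other 12 genes, CDKN2A and CDKN2B among them, had means of 1.19 to 2.02, and all were within the reference. They include MTAP, which salvages methionine in nearly all tissues, at 1.41, 1.35 and 1.98, KLHL9, a ubiquitin ligase adaptor, at 1.25, 1.10 and 1.23, and MIR31 at 1.25, 1.46 and 1.28. On the flanks MLLT3 read 4.74, 4.78 and 4.93, FOCAD 2.66, 2.50 and 2.71, and TUSC1 3.19, 3.02 and 2.66, all above the reference. The region is among the most often deleted in tumours, and DNA copy number was not tested.

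**Figure D4:**
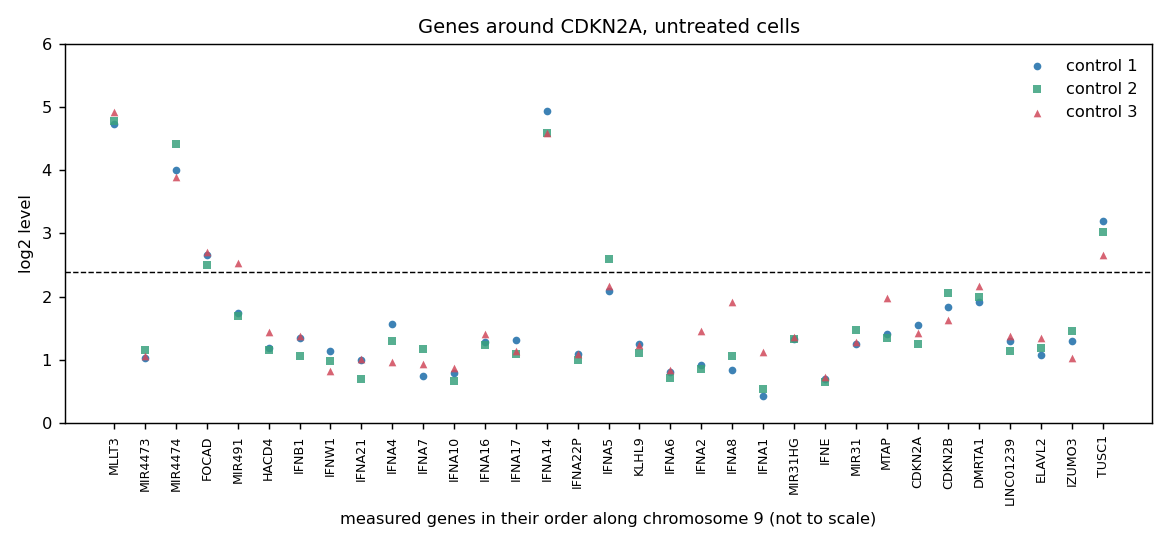
Log2 level (vertical axis) on control 1 (circle), control 2 (square) and control 3 (triangle) of measured genes in their order along chromosome 9 from MLLT3 to TUSC1 (horizontal axis, not to scale), with the mean 95th percentile of the olfactory receptors as a dashed line. Between FOCAD and TUSC1 only IFNA14 is above the reference on all arrays.

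Secreted and matrix genes were bright, with 43 of 55 above the reference (78.2%, against 51.7% of all and 60.0% of protein-coding genes). Their median percentile was 81.3. Thrombospondin 1 (THBS1), a matrix protein that activates TGF-beta, read 9.78, 9.77 and 7.94. The plasminogen activators PLAT (9.55, 9.48 and 8.63) and PLAU (7.49, 7.54 and 6.80) and the metalloprotease inhibitor TIMP1 (9.34, 9.48 and 7.87) were also lowest on control 3. CCN1, a matricellular target of YAP, had a mean of 8.86 ± 0.32 and DKK1, a secreted WNT inhibitor, 8.32 ± 0.28. The membrane collagenase activator MMP14 read 7.82, 7.72 and 7.66 and the interstitial collagenase MMP1 7.05, 6.95 and 6.90, both with an SD of 0.08. IL6 read 4.78, 4.89 and 3.68, lowest on control 3. CXCL8, the neutrophil chemokine, read 2.36, 2.30 and 2.16 and was not above the reference.

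Of 24 genes tied to lung or bone colonisation by sublines of this line 20 were above the reference (83.3%, against 60.0% of protein-coding genes). Beside MMP1 and CXCR4 these were led by CCN2, a matricellular protein (7.69, 7.73 and 6.57), the phosphatase DUSP1 (7.46, 7.65 and 5.73), the TGF-beta carrier LTBP1 (6.91 ± 0.08) and ID1, an inhibitor of differentiation factors (6.43 ± 0.38). IL11, an osteoclast-inducing cytokine, read 4.48, 5.06 and 4.26. The 4 within the reference were SPARC, the gelatinase MMP2, at a mean of 2.11, the adhesion molecule VCAM1, at 1.46, 1.53 and 1.67, and the decoy receptor IL13RA2, at 0.98. These 4 genes are known for higher expression in sublines that colonise the lung, which were not measured here.

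Of 35 genes of antigen presentation and immune regulation 28 were above the reference (80.0%, against 51.7% of all and 60.0% of protein-coding genes). B2M, the invariant chain of class I molecules, read 8.39, 8.55 and 8.51. HLA-E had a mean of 8.11 ± 0.24 and HLA-C 7.65 ± 0.39. HLA-B read 2.72, 2.37 and 2.24 and was within the reference. CD274, which encodes the checkpoint ligand PD-L1, read 6.34, 6.53 and 5.53. HLA-DRA, a class II chain that most epithelial cells lack, read 5.89, 6.06 and 5.98, although the dimmest of its 7 rows had a mean of 3.71. CD74 (4.65), HLA-DMA (4.48) and the class II activator CIITA (3.23) were above the reference as well, and HLA-DRB1, at a mean of 0.78, was not. HLA genes vary in sequence between people and cell lines, and how well the probes match them here was not tested.

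Surface markers used to sort progenitor-like breast cells were mixed. CD44 was far above the reference, while CD24 lay between 3.69 and 4.89. The aldehyde dehydrogenases ALDH1A1 (0.92, 1.35 and 1.58) and ALDH1A3 (2.49, 2.76 and 1.96) were not above the reference on every array. SOX9 had a mean of 7.38 ± 0.11, SOX4 6.15 ± 0.08 and the integrin chain ITGB1 6.21 ± 0.05. In all, 12 of 22 genes on this list were above the reference (54.5%), between the 51.7% of all and the 60.0% of protein-coding genes.

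Of 18 S100 genes, which encode small calcium-binding proteins, 8 were above the reference (44.4%). The share was 51.7% for all genes and 60.0% for protein-coding genes. At the 99th percentile 7 passed, as did 40.0% of all genes. The 7 were S100A10 (6.69 ± 0.25), S100A16 (6.58 ± 0.22), S100A3 (5.84 ± 0.34), S100A11 (5.49 ± 0.37), S100A6 (5.21 ± 0.09), S100A4 (4.92 ± 0.14) and S100A2 (3.77). The members of squamous and myeloid cells were within the reference, with S100A7 at 1.24, S100A8 at 1.32 and S100A12 at 1.15.

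Markers of 8 other cell types were used to check the label. Of 81 distinct measured markers 24 were above the reference (29.6%) and 7 at the 99th percentile (8.64%), against 51.7% and 40.0% of all genes. The share of protein-coding genes at the 95th percentile was 60.0%. By type the share at the 95th percentile was uneven: 5 of 10 mesothelial (50.0%) and 5 of 11 endothelial markers (45.5%) lay near that of all genes, and 3 of 15 leukocyte and 0 of 8 hepatocyte markers below it. The defining markers of leukocytes (PTPRC, 0.94, 0.94 and 1.15), endothelium (CDH5, 1.84, 2.20 and 1.61), adipocytes (ADIPOQ, 0.99, 1.21 and 1.21), melanocytes (MLANA, 1.41, 1.52 and 1.78) and fibroblasts (DCN, 1.14, 1.12 and 1.57) were below the reference on all arrays. So were the hepatocyte markers ALB and APOA1 and the mesothelial factor WT1. The 7 brighter ones were CD68 (8.10), LAPTM5 (6.04), ESAM (6.53), ROBO4 (3.79), COL6A3 (4.90), CALB2 (5.63) and MBP (3.96). COL6A3, a collagen VI chain, read 5.62, 5.51 and 3.56, lowest on control 3.

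The remaining markers of other cell types were dimmer. Above the reference at its 95th percentile only were LCP1 (3.43) of leukocytes, EGFL7 (3.49), KDR (3.19) and CLDN5 (2.77) of endothelium, COL1A1 (3.28) and FBLN1 (2.80) of fibroblasts, and PLIN4 (2.80) and PLIN1 (2.65) of adipocytes. The same held for DES (3.33), KLK11 (3.22), MSLN (3.14) and CDH1 (3.01) of the mesothelial list, SOX10 (3.38) and MITF (3.08) of melanocytes, and SNAP25 (3.16), RBFOX3 (2.74) and GFAP (2.63) of neural cells. Within the reference were CD79A (2.48), CSF1R (2.43), COL1A2 (2.72), THY1 (2.08), LEP (1.84), CIDEA (1.71), CIDEC (1.48), PMEL (2.52), S100B (1.54) and SYT1 (2.54). So were all 8 hepatocyte markers, led by TTR (2.69), CPS1 (2.60), APOC3 (2.25) and SERPINA1 (2.07).

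All 27 measured mitosis genes and all 29 S phase genes were above the reference, with median percentiles of 95.1 and 89.4. Of protein-coding genes 60.0% were above it, with a median percentile of 58.2. At the 99th percentile 26 of the 27 passed, and HMMR, a hyaluronan-binding spindle protein, did not, at a mean of 3.09. MKI67, the proliferation marker Ki-67, read 8.64, 8.52 and 8.56, and PCNA, the sliding clamp, 8.21, 8.34 and 8.26, with little spread. TOP2A, the topoisomerase of mitotic chromosomes, read 8.95, 8.76 and 9.85, and CDK1, the mitotic kinase, 6.10, 6.10 and 7.30. MCM2, a subunit of the replicative helicase, read 5.66, 5.45 and 4.99. The spindle factors TPX2 (8.80 ± 0.22) and NUSAP1 (8.04 ± 0.43) and the cyclins CCNA2 (8.04 ± 0.27) and CCNB1 (7.04 ± 0.44) were highest on control 3. Of the replication genes, MCM3 (8.10 ± 0.37), the thymidylate synthase TYMS (8.02 ± 0.08) and MCM4 (7.13 ± 0.31) were lowest on that array, and the clamp loader RFC3 (7.09 ± 0.21) highest. TOP2A and CDK1 were likewise highest and MCM2 lowest on control 3.

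The untreated samples differed among themselves mainly through control 3. Of the 11435 genes above the reference 803 had a range of more than 1 log2 unit over the 3 arrays (7.02%), and in 744 of these control 3 was the array farthest from the median. Control 3 was the lowest in 539 of the 744 and the highest in 205. These counts leave out 976 genes above the reference on controls 1 and 2 but not on control 3. They also leave out 540 genes above it on control 3 but not on both others. With controls 1 and 2 alone, 18 of the 11435 genes differed by more than 1. The largest range belonged to FOS, an immediate early AP-1 gene, at 6.61, 6.79 and 2.71. FOSB read 5.30, 5.49 and 2.84, and TGFBI, a secreted target of TGF-beta, 5.49, 5.66 and 2.86. The histone gene H2BC14 (7.42, 7.23 and 4.55), APCDD1L (5.67, 5.72 and 3.09) and the hyaluronan-binding protein CEMIP (6.08, 5.94 and 3.75) were low on control 3 too. SORCS2 (4.74, 4.88 and 2.58), cytidine deaminase CDA (7.37, 7.42 and 5.15) and the lysosomal reductase IFI30 (5.58, 5.64 and 3.42) were low on control 3 as well. OARD1, which removes ADP-ribose, was the one gene of the 10 with the largest range that was high there, at 4.04, 4.22 and 6.44.

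Seen by list, control 3 was low in stress, matrix, mesenchymal and antigen presentation genes and high in mitosis genes. Of the genes above the reference, control 3 was above both other arrays in 30.0% and below both in 56.0%, and the median difference from the mean of controls 1 and 2 was -0.15. Of 27 mitosis genes control 3 was highest in 23 and lowest in 3, with a median difference of 0.74. NUF2 of the kinetochore read 5.59, 5.37 and 7.03 and its partner NDC80 5.84, 5.81 and 7.20. In the stress and immediate early list control 3 was lowest in 20 of the 22 genes above the reference, with a median difference of -0.86. EGR1, an early response factor, read 5.76, 5.79 and 4.26, JUN 7.75, 7.82 and 7.08 and ATF3, which missed the reference on control 3, 3.41, 3.56 and 2.21. The brightest of that list were the chaperone HSPA5 (9.37 ± 0.22), TXNIP (8.73 ± 0.21), which was highest on control 3, IER3 (8.10 ± 0.51) and KLF6 (7.82 ± 0.56). Control 3 was lowest in 40 of 43 secreted and matrix genes and in 22 of 23 mesenchymal genes, with medians of -0.67 and -0.59 over the members above the reference. Over all measured members it was lowest in 47 of 55 and 27 of 32, with medians of -0.51 and -0.39. In antigen presentation and immune regulation genes it was lowest in 24 of the 28 above the reference, with a median of -0.49. In S phase genes it was lowest in 21 of 29, with a median of -0.32. The directions of the list medians, over members above the reference, were the same after quantile normalization and after setting the arrays to a common median. These scalings moved the median of the mitosis genes to 0.80 and 0.85 and that of the stress genes to -0.69 and -0.75. The median of -0.15 over all genes above the reference did not persist, and became 0.002 and -0.036. The differences between single arrays have no test.

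**Figure D5:**
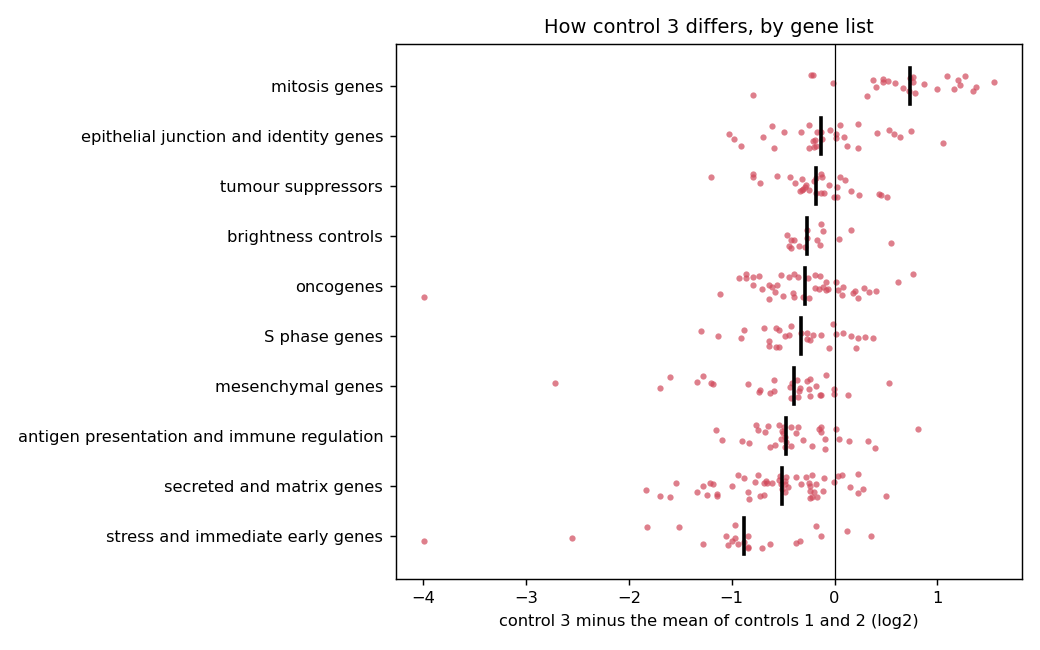
Difference of control 3 from the mean of controls 1 and 2 (horizontal axis, log2) for every measured member of 10 gene lists, above the reference or not, with the median of those members as a black bar. Mitosis genes lie mostly to the right of 0 and stress, secreted, mesenchymal and antigen presentation genes mostly to the left, with FOS at -3.99 as the farthest point.

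Promoters were compared as a feature that the ranking did not use. In RefSeq promoter windows (GRCh38.p14, 250 bases before to 50 after the start), the ratio of observed to expected CpG pairs had a median of 0.88 for 858 of the 1000 brightest protein-coding genes. It was 0.77 for 13788 of all 16954 protein-coding genes. The ratio was over 0.6 in 91.7% of the brightest and in 67.6% of all. For 8532 of the 10179 protein-coding genes above the reference the median was 0.85, with 84.2% over 0.6. Much of the contrast with all genes was thus shared by genes above the reference. The remaining genes had no window in the table used. Promoters rich in CpG are known to serve broadly expressed genes. The median GC content of the windows was 66.2% for the brightest, 65.3% for genes above the reference and 63.0% for all.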

How the data were processed

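Per the labels, total RNA of each sample was hybridised to 1 Affymetrix Human Gene 2.1 ST array. The Transcriptome Analysis Console was used, per the submitters' processing notes. Its version and how it summarized and scaled the probes are not stated in them. The deposited values are taken as log2 expression, a base inferred from their range, and were used as deposited. Gene names came from the array's annotation, with 1 symbol on 23558 rows, several on 2155 and none on 27904. Entrez identifiers tied 22271 of the first to RefSeq records and updated 3 symbols. 618 genes had several rows. Means, SDs, ranks and counts over the 3 control arrays were computed with Python 3.11.15, pandas 2.3.3 and numpy 2.4.6. The call was also run on simulated data with genes planted far above the reference, which does not test genes near its edge. One group was described with no comparison between groups, no test was run and no p-value is given, and precision is limited by having 3 arrays.

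The members, the 27 gene lists (668 genes, 607 measured) and the named genes were chosen with earlier results of these data known. Named are the members marked as defining, the 5 brightest of each list, the 25 brightest genes other than small RNAs, the 5 brightest small RNAs, the 10 genes of largest range and the 5 of largest range in the lists. The rule gives each array's value; for many the mean and SD, or the mean, stand in its place. Further list members, the microRNA genes and the chromosome 9 stretch were added after their values were seen. Pseudogenes were taken by RefSeq biotype, or by a symbol ending in P and digits where no record matched. Alternatives were other array scalings, other rows of a repeated gene, other references, other gene sets and leaving out each array.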

Additional observations from a re-analysis of the deposited data

Results flagged for a closer look

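Rows that name no single gene also carried signal on the untreated arrays. Of 27904 rows with no symbol 6978 were above the 95th percentile of the olfactory receptors on all 3 arrays, with a highest mean log2 level of 11.80. Of 2155 rows with several symbols 1127 were above it, with a highest mean of 11.35. They were outside the gene table and were not analysed further.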

How the results depend on the processing

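The number of genes above the reference stayed within 1.5 times the main count of 11435 under all alternatives. The lineage lists depended on the reference. With its 99th percentile the counts were 13 epithelial, 9 luminal and 4 basal genes, and with keratin-associated, late cornified envelope and beta-defensin genes as the reference 12, 9 and 4. Mesenchymal counts stayed within 1.5 times of 23. The spread between the control arrays, as genes above the reference with a range over 1, was 803 genes. It ranged from 23 (without control 3) to 648 when 1 array was left out, and was 534 with the other reference genes. Of 260 levels named in the text, the largest move by scaling was 0.132 and leaving out control 3 moved 18 by over 0.5, with FOS at 6.70 in place of 5.37. Another row of a repeated symbol moved 10 levels beyond their SD, with RPS28 at 3.56, SMAD4 at 1.99, IER3 at 4.17 and HLA-E at 5.27 in the dimmest row. Of 253 counts for the 23 other lists 22 moved by over 1.5 times, 8 with the 99th percentile and 8 with the other reference genes. No paired analysis was possible because a single group was described.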
